A study of Mus musculus with 6 samples.

Results

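Mouse cortical neurons on a combined scaffold were set against the same kind of neurons on a plain coating. The scaffold side, labelled PA + PS2, carries IKVAV and PEDOT-S in its library names, and the other side, labelled control, carries PDL. The comparison uses 4 of the 6 libraries of the study, 2 a side, taken by their group label, and repeat 1 and repeat 2 of each side were treated as pairs. All 6 libraries come from wild type mice of CD1, an outbred stock. The treatment field names a peptide amphiphile for every library, the control included. The other 2 libraries, neurons with PA and no PS2 in the label, served to estimate the spread and are given beside the results. The labels spell out neither PDL nor PS2, and give no age, culture time, dose or plating density. Nothing in them ties a repeat to a culture or an animal of its own. The p-values therefore reflect the spread among these libraries, which may be technical.

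IKVAV is a peptide sequence of laminin, a protein of the basement membrane that cells hold on to through integrins and other receptors. Peptide amphiphiles join such a peptide to a fatty tail and assemble in water into nanofibres that display it. PEDOT is a conducting polymer, and PEDOT-S is a form that carries sulfonate groups. Cultures of cortical neurons commonly also hold dividing progenitors, glia and cells of the vessels and meninges, each with its own marker genes.

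Library totals ran from 30752495 to 33923681 counts over the 4 libraries, so that 1 CPM (count per 1000000 counts, scaled by TMM) stood for 30.8 to 33.9 counts. The markers of cortical neurons were present on both sides: Map2, a dendritic microtubule protein, lay between 2192 and 2441 CPM over the 4 libraries, and Snap25, a protein of vesicle fusion, between 358 and 428 CPM. Markers of other cells were present too. Nes, a filament protein of progenitors, was at 38.0 and 76.6 CPM in control repeats 1 and 2, and Acta2, a contractile actin of mural cells, was at 53.7 and 87.9 CPM. Of the 4 defining endothelial markers, Cldn5, Cdh5 and Tek were each at 10 counts or fewer in every library and were not tested, whereas Pecam1 was at 1.22 and 1.07 CPM in the control. The 25 microglial markers summed to 26.8 and 33.0 CPM in the control and to 23.8 and 37.2 CPM in PA + PS2. In bulk libraries, fewer cells of a type and less RNA per cell cannot be told apart. CPM does not correct for gene length, so levels of different genes are not compared.

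Most of the change was downwards. Of 17299 genes tested, 117 passed edgeR's quasi-likelihood test with the repeat number as a block (0.676%), 24 higher (0.139%) and 93 lower (0.538%) in PA + PS2. Most gene lists used below would hold few calls or none at 0.676%, so being the only member to pass sets no gene apart. The median log2 fold change over all genes tested was 0.01. The 24 genes that rose were mostly well expressed and moved little, with a median log2 fold change of 0.54 and a median level of 74.1 CPM. The 93 genes that fell moved further and lay lower, with a median log2 fold change of -1.25 and a median level of 6.73 CPM, against 13.7 CPM over all genes tested. Of them, 60 fell by at least 1 on the log2 scale and 53 had a mean under 10 CPM. The 2 groups did not overlap for 21 of the 24 higher genes (16.6% of all genes tested lay higher without overlap) and for 91 of the 93 lower genes (17.1% lay lower). The exceptions were Zbtb20, Wnt7b and Ttr among the higher genes, and Gda and Zfp804b among the lower. In edgeR all of these calls needed the pairing: without the block 0 genes passed (smallest adjusted p = 0.270, with 1179 genes at unadjusted p under 0.05). DESeq2 without the block called 130 genes, 79 of them among the 117, and DESeq2 with the block called 279, 42 higher (0.243%) and 237 lower (1.37%), 111 of them among the 117. With the block, 0 genes passed without control 2 (927 at unadjusted p under 0.05) or without PA + PS2 2 (1054), 61 passed without control 1 and 522 without PA + PS2 1.

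**Figure D1:**
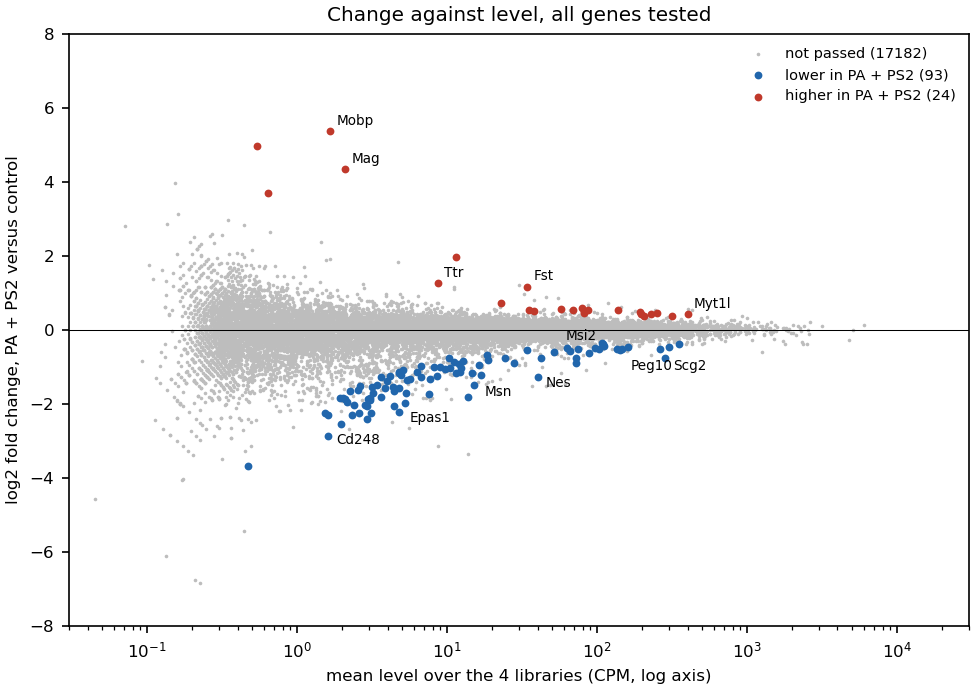
Log2 fold change of PA + PS2 against control (vertical) by mean level over the 4 libraries in CPM (horizontal, log axis), 1 point a gene. Red points are the 24 genes that rose, 14 of them at 50 CPM or more with small changes, and blue points the 93 that fell, 53 of them below 10 CPM with larger changes; grey points are the 17182 genes that did not pass.

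Follistatin had the smallest p of all genes. Fst encodes a secreted protein that binds activins and blocks them. It was at 24.8 and 17.4 CPM in control repeats 1 and 2 and at 51.6 and 42.2 CPM in PA + PS2 repeats 1 and 2, higher within both repeats, with a log2 fold change of 1.16 ± 0.11 (SE) and an edgeR adjusted p = 0.00293. The other 3 genes of the activin, BMP and TGF-beta list that passed fell, among 56 tested whose median was -0.02. Bmp7, a ligand of the BMP branch, fell from 2.41 and 2.62 to 0.638 and 0.422 CPM. Gdf10, a ligand of the same superfamily, fell from 22.2 and 22.9 to 14.6 and 13.6 CPM, and Fstl1, a follistatin-like secreted glycoprotein, fell from 87.1 and 93.9 to 58.1 and 48.9 CPM. Inhba, which encodes the activin A chain that follistatin binds, did not pass, at 84.9 and 85.8 CPM in the control and 83.6 and 43.4 CPM in PA + PS2, level in repeat 1 and lower in repeat 2.

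Single genes with known roles in neurons were among the 24 that rose. No single list used here joins them. Of 24 immature neuron and growth cone genes and 74 axon guidance genes 0 passed, beside 0.676% of all genes tested. At that share lists of this size hold few calls or none, so these counts do not set the lists apart. Myt1l, a transcription factor that represses non-neuronal programmes in neurons (GRCm38 chromosome 12, 29528384 to 29923213), was at 346 and 338 CPM in the control and 447 and 470.1 CPM in PA + PS2, a log2 fold change of 0.42 ± 0.07 (SE; edgeR adjusted p = 0.0278). Sez6, a membrane protein of dendrites and synapses, rose from 171 and 185 to 219.5 and 241 CPM. Cntn2, an adhesion molecule of axons that is also known as TAG-1, rose from 139 and 179.9 to 188 and 259 CPM. In all 3 genes both scaffold libraries lay above both controls, as in 16.6% of all genes tested. Cdh4, a classical cadherin, rose from 60.8 and 80.7 to 88.1 and 119 CPM, while another member of that family, Cdh20, fell from 13.9 and 15.01 to 8.64 and 7.15 CPM, among 14 cadherins tested. Cbln1, a secreted synaptic organiser, rose from 29.9 and 32.6 to 45.2 and 43.8 CPM and was the only gene to pass among 48 postsynaptic scaffold and adhesion genes, whose median was -0.04.

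Single genes of other signalling lists rose as well. Nos1, neuronal nitric oxide synthase, was at 57.5 and 55.4 CPM in the control and 87.7 and 76.2 CPM in PA + PS2 (log2 fold change 0.54 ± 0.08 (SE), edgeR adjusted p = 0.0183). Prkg2, a kinase that cyclic GMP activates further down the same pathway, moved the other way, from 6.52 and 6.58 to 3.22 and 2.66 CPM, and the other 22 of the 24 genes tested in the nitric oxide and cGMP list did not pass. Cnr1, the cannabinoid receptor of presynaptic terminals, rose from 269 and 278 to 356 and 355 CPM; the 4 values fall into 2 tight pairs. Among 66 neurotransmitter and peptide receptors tested it was the only one to pass, beside 0.676% of all genes tested. Wnt7b, a secreted Wnt ligand, rose within both repeats, from 57.0 and 79.7 to 77.0 and 113 CPM, but control 2 lay above PA + PS2 1. It was the only one of 54 Wnt pathway genes to pass, beside 0.676% of all genes tested, and their median was 0.01.

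The remaining higher genes included 5 regulators of transcription. Lmo4, a cofactor that marks subsets of cortical projection neurons, rose from 199.99 and 193 to 260.3 and 265 CPM, the only one to pass of 28 projection neuron genes tested (21 of them above 0, median 0.14). Zbtb20, a zinc finger repressor, rose within both repeats, from 163 and 261 to 240.5 and 333 CPM, although control 2 lay above PA + PS2 1. Zfp462, a zinc finger protein, rose from 152 and 179.6 to 208 and 241 CPM. These 3 genes had log2 fold changes of 0.42, 0.45 and 0.44. Hivep3, a large zinc finger protein, rose from 57.3 and 69.6 to 87.98 and 101 CPM, and Mycl, a member of the Myc family, rose from 65.0 and 72.2 to 86.9 and 102 CPM. Enzymes and transporters completed the group. St6galnac5, a sialyltransferase that acts on brain gangliosides, rose from 40.9 and 52.5 to 58.4 and 78.7 CPM. Slc16a6, a monocarboxylate transporter family member, rose from 18.9 and 15.4 to 26.9 and 29.6 CPM. It was the only one of 242 solute carriers tested to pass, beside 0.676% of all genes tested, which does not set it apart. Foxred2, a flavoprotein of the endoplasmic reticulum, rose from 31.4 and 26.2 to 43.0 and 40.5 CPM. The gene 6330403K07Rik rose from 114 and 111 to 166 and 162 CPM (edgeR adjusted p = 0.0136), with each pair of libraries close together. Of the 24 higher genes, 8 belonged to no list or family used here: 6330403K07Rik, Zbtb20, Myt1l, Sez6, Foxred2, Hivep3, Cntn2 and Mycl.

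**Figure D2:**
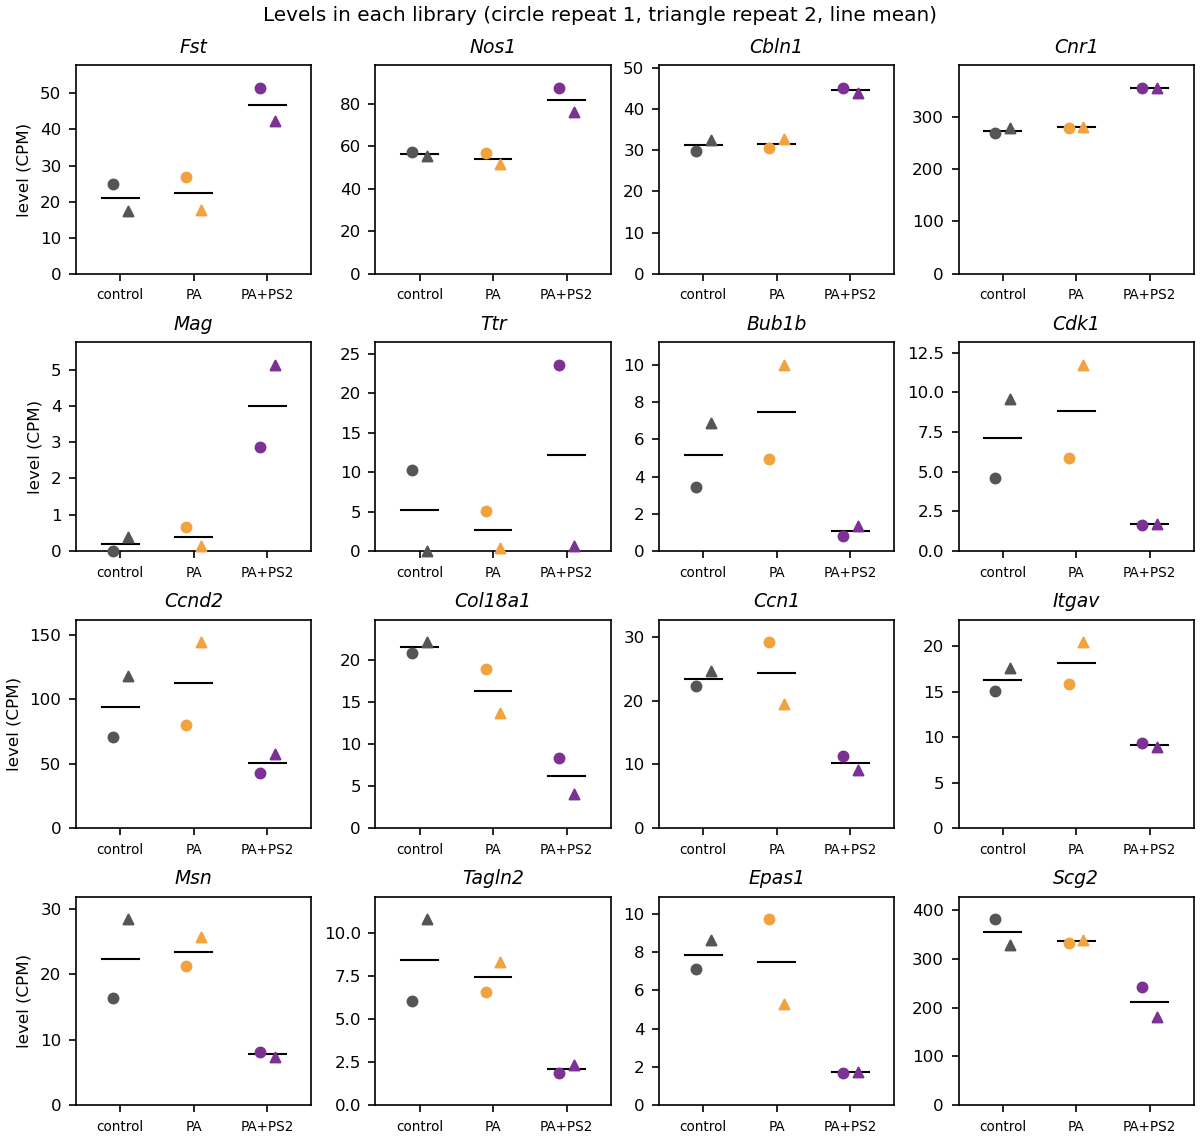
Level in CPM (vertical, from 0) of 16 genes in each of the 6 libraries by group (horizontal); circles are repeat 1, triangles repeat 2 and lines the mean of 2 libraries. In all panels but Ttr both PA + PS2 libraries lie on one side of the 2 control and the 2 PA libraries.

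Some myelin genes of mature oligodendrocytes rose, while most tested markers of their precursors lay lower. Of 33 mature oligodendrocyte genes listed, 24 were tested, of which 5 rose and 0 fell (15 above 0 and 9 below, median 0.27). Mal, Mobp and Cldn11 reached the filter on low counts only through the PA + PS2 libraries, so they could be tested only because they were high there, and the count and median of the list support nothing. The 4 described here held few counts in the control. Mag, an adhesion protein of the myelin sheath, had 13 counts in the 2 control libraries together and 248 in the 2 scaffold libraries, a ratio of 20.6 after scaling (95% interval 11.8 to 39.2, counting error only). Mobp, a basic protein of compact myelin, had 5 and 202 counts (ratio 43.6, 18.4 to 136). Mal, a lipid raft protein of myelin, had 2 and 65 (35.0, 9.32 to 295), and Cldn11, the claudin of the sheath, had 6 and 74 (13.3, 5.83 to 37.4). In each of these 4 genes both scaffold libraries lay above both controls, as in 16.6% of all genes tested. For Mal, Mobp and Cldn11 that order and the ratios follow in part from the filter and give no support. With DESeq2 and the block Mag and Mobp did not pass (adjusted p = 0.388 and 0.717), and no adjusted p was given for Mal and Cldn11. Mbp, myelin basic protein, was at 21.4 and 21.95 CPM in the control and 32.4 and 53.6 CPM in PA + PS2 and did not pass (edgeR adjusted p = 0.0726). Mog, another defining marker of mature oligodendrocytes, did not pass either. It was at 12.3 and 6.523 CPM in the control and 12.02 and 8.804 CPM in PA + PS2. Its groups overlapped, with PA + PS2 slightly lower in repeat 1 and higher in repeat 2.

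Of 17 precursor genes tested, 15 lay below 0, with a median of -0.58, and only Cspg4 passed. Cspg4, the NG2 proteoglycan that pericytes also carry, fell from 3.78 and 6.11 to 0.893 and 0.942 CPM, a log2 fold change of -2.42 ± 0.30 (SE; edgeR adjusted p = 0.00813). Olig1 and Olig2, transcription factors of the lineage, did not pass (edgeR adjusted p = 0.257 and 0.274). Olig1 was at 12.5 and 37.9 CPM in the control and at 2.45 and 2.37 CPM in PA + PS2. Olig2 was at 8.49 and 22.6 CPM in the control and at 2.07 and 1.40 CPM in PA + PS2. Both were lower in both scaffold libraries, as were 17.1% of all genes tested, and in both control 2 was far above control 1. Pdgfra, the growth factor receptor of precursors, was at 7.30 and 11.8 CPM in the control and at 2.04 and 0.975 CPM in PA + PS2. The summed level of the 20 precursor genes was 824 and 983 CPM in the control and 840 and 761 CPM in PA + PS2. That sum was slightly higher in repeat 1 and lower in repeat 2. The summed level of the 33 mature genes was 90.3 and 93.3 CPM in the control and 123 and 154 CPM in PA + PS2.

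Ttr, the thyroxine carrier made by choroid plexus, followed the repeat more than the group. It was at 10.3 and 0.0298 CPM in control repeats 1 and 2 and at 23.6 and 0.617 CPM in PA + PS2, so the groups overlapped although it was higher within both repeats (log2 fold change 1.25 ± 0.24 (SE), edgeR adjusted p = 0.0361). It did not pass in DESeq2 with the block (adjusted p = 0.727). The other 11 choroid and ependymal genes tested did not pass, and their median with Ttr was -0.15. The summed level of the 22 listed genes was 32.5 and 28.1 CPM in the control and 45.6 and 21.3 CPM in PA + PS2. Folr1, a folate receptor of choroid plexus, was at 1.28 and 1.16 CPM in the control and 0.829 and 0.260 CPM in PA + PS2. How far choroid plexus RNA enters the Ttr value was not tested.

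Of the lists used here, mitosis held the most genes that fell. Cell division needs the kinase Cdk1 with its cyclin Ccnb1, a checkpoint that holds chromosomes until they are attached, motor proteins of the spindle and proteins that divide the cell body. Of 55 mitosis and spindle genes tested, 11 fell and 0 rose, 54 lay below 0 and the median was -1.08. Cdk1 itself was at 4.62 and 9.59 CPM in the control and 1.66 and 1.69 CPM in PA + PS2 (log2 fold change -2.06 ± 0.27 (SE), edgeR adjusted p = 0.00996). Ccnb1 fell from 3.04 and 6.58 to 1.116 and 1.56 CPM, and Bub1b, a checkpoint kinase, fell from 3.46 and 6.85 to 0.797 and 1.36 CPM. Cdca2, a regulator of mitotic chromosomes, fell from 2.71 and 4.97 to 0.669 and 0.877 CPM. In all 4 genes control 2 was above control 1, and both scaffold libraries lay below both controls, as in 17.1% of all genes tested. Kif11, the motor that pushes spindle poles apart, fell from 7.39 and 14.8 to 4.43 and 4.19 CPM. The midzone motors Kif20a and Kif23 fell from 3.72 and 5.66 to 1.31 and 1.88 CPM and from 3.96 and 7.51 to 1.98 and 2.37 CPM, and the kinetochore genes Cenpe and Cenpf from 8.01 and 13.8 to 5.13 and 5.52 CPM and from 10.8 and 21.0 to 6.82 and 9.65 CPM. Anln and Ect2, which act in the cleavage furrow, fell by 1.65 and 1.33 on the log2 scale. Top2a and Mki67, common markers of dividing cells, did not pass (edgeR adjusted p = 0.0537 and 0.506). Mki67 was at 17.2 and 36.5 CPM in the control and at 10.1 and 8.22 CPM in PA + PS2.

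DNA replication genes moved less than mitosis genes on the median. None of 38 passed in either direction, 31 lay below 0 and the median was -0.22. Mcm3, a subunit of the replication helicase, had the smallest p among them, at 4.62 and 12.1 CPM in the control and 3.31 and 3.83 CPM in PA + PS2 (edgeR adjusted p = 0.0624). No test of the difference between the replication and mitosis lists was made. Outside these lists, other genes of dividing cells fell. Pbk, a mitotic kinase, fell from 3.78 and 5.99 to 1.15 and 1.85 CPM, Ncapg, a condensin subunit, from 3.60 and 4.2 to 1.18 and 1.53 CPM, and Clspn, a checkpoint adaptor at replication forks, from 2.14 and 3.90 to 0.542 and 1.137 CPM. Iqgap3, a scaffold protein of proliferating cells, fell from 2.80 and 4.02 to 0.956 and 1.20 CPM.

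Many promoters of mitotic genes carry the cell cycle homology region (CHR, TTTGAA) together with CCAAT boxes that NF-Y binds. Letters were searched on both strands of RefSeq promoters (GRCm38.p6, 250 bases before to 50 after the start), of which 11692 tested genes and 84 of the 117 called genes had one. TTTGAA stood in 7 of 9 promoters of mitosis genes that fell and in 7 of the 61 other promoters of lower genes (11.5%), beside 11.6% of all. CCAAT stood in 8 of the 9, in 18 of the 61 (29.5%) and in 38.5% of all. The promoters of Cdk1, Cenpf and Ccnb1 are shown in the direction of transcription, 5′ to 3′, since they carry these letters in different numbers. Capitals mark both sets of letters, read on either strand. Cdk1 lies at chr10:69352863-69353162, Cenpf at chr1:189688037-189688336 and Ccnb1 at chr13:100786437-100786736, all on the minus strand.
Cdk1: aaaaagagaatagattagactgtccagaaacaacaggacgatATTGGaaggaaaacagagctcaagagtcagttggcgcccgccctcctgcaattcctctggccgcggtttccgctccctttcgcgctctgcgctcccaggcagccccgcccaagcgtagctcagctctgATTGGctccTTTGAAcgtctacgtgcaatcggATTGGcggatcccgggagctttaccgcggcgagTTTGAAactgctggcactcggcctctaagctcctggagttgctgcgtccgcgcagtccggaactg
Cenpf: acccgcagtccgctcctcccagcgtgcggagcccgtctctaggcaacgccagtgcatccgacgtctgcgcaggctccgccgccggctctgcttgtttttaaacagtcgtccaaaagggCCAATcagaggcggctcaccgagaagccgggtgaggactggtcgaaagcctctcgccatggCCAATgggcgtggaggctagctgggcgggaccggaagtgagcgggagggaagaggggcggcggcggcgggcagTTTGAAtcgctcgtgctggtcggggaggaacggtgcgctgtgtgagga
Ccnb1: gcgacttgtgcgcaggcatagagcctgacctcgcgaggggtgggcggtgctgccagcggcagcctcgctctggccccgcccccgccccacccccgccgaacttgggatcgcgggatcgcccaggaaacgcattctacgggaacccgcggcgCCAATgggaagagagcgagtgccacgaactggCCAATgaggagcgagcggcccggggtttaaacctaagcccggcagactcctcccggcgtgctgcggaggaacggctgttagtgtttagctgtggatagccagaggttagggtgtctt
Cdk1 holds 5 matches, of which 2 are TTTGAA, Cenpf holds 3 and Ccnb1 holds 2, both CCAAT. A match is a description of letters and not a site of binding. Mitosis genes that did not fall were not counted, so whether the letters go with the fall was not tested.

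Some progenitor genes fell beside the mitosis genes. Of 24 tested, 4 fell and 0 rose, 19 lay below 0 and the median was -0.39. Ccnd2, a cyclin of the first gap phase that marks cortical progenitors (GRCm38 chromosome 6, 127125162 to 127152193), was at 70.8 and 118 CPM in the control and 42.8 and 57.4 CPM in PA + PS2. Its log2 fold change of -0.88 ± 0.10 (SE) had an edgeR adjusted p = 0.00786. Ccnd1, a related cyclin, fell from 10.8 and 13.5 to 5.80 and 4.26 CPM. Notch1, a receptor that holds progenitors undifferentiated, fell from 8.85 and 23.4 to 5.64 and 8.09 CPM, with the 2 controls far apart, and Nes fell from 38.0 and 76.6 to 20.2 and 25.3 CPM. Sox2, a transcription factor of progenitors, was at 27.1 and 40.9 CPM in the control and 24.1 and 34.9 CPM in PA + PS2, and did not pass. Vim was at 164 and 222 CPM in the control and 144 and 145 CPM in PA + PS2. Pax6 was at 5.06 and 7.09 CPM in the control and 3.83 and 6.92 CPM in PA + PS2. Eomes was at 2.77 and 2.59 CPM in the control and 1.85 and 4.29 CPM in PA + PS2. Eomes was thus lower in repeat 1 and higher in repeat 2. None of these passed. The summed level of all 24 genes was 787 and 1197 CPM in the control and 669.6 and 792 CPM in PA + PS2.

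Msi2, an RNA-binding protein of neural progenitors and glia, fell with little spread (GRCm38 chromosome 11, 88339382 to 88718513). It was at 161 and 174 CPM in the control and 109 and 119 CPM in PA + PS2, a log2 fold change of -0.56 ± 0.07 (SE; edgeR adjusted p = 0.00813). Astrocyte genes had a median of -0.52 with 0 of 23 passing, and the reactive astrocyte list had a median of -0.49 with 3 of 20 fallen, namely Nes, Cd44 and Emp1. Cd44, a hyaluronan receptor, fell from 3.37 and 6.02 to 1.34 and 0.910 CPM, and Emp1, an epithelial membrane protein, fell from 8.997 and 14.5 to 3.79 and 3.15 CPM. Some other genes that glia express fell as well, of which Hepacam, Gldc and Tril belong to no list. Hepacam, an adhesion protein of astrocytes, fell from 2.89 and 6.23 to 0.797 and 1.43 CPM (log2 fold change -2.03 ± 0.29 (SE), edgeR adjusted p = 0.0139). Gldc, the glycine decarboxylase, fell from 4.92 and 8.88 to 2.61 and 3.22 CPM, Tril, a partner of Toll-like receptors, from 1.76 and 5.09 to 0.478 and 1.30 CPM, and Mt3, a brain metallothionein, from 11.5 and 22.1 to 6.31 and 8.58 CPM. The summed level of the 25 astrocyte markers was 903 and 1262 CPM in the control and 913 and 1191 CPM in PA + PS2, so that it was close within both repeats. Slc1a2, a glutamate transporter of astrocytes, was at 163 and 178 CPM in the control and at 168 and 197 CPM in PA + PS2. Other defining astrocyte markers lay lower within both repeats. Aldh1l1 was at 4.98 and 13.2 CPM in the control and 2.77 and 2.47 CPM in PA + PS2. Gja1 was at 8.61 and 15.8 CPM in the control and 7.08 and 7.15 CPM in PA + PS2. Aqp4 was at 0.566 and 0.894 CPM in the control and 0.287 and 0.617 CPM in PA + PS2. Gfap lay higher, at 0.0298 and 0.596 CPM in the control and 0.255 and 0.747 CPM in PA + PS2.

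Genes of the extracellular matrix fell in each class tested, with small counts of calls. Collagens form the fibres and basement membrane nets of the matrix. Of 38 tested, 4 fell and 0 rose, 32 lay below 0 and the median was -0.59. Col18a1, which gives rise to endostatin and lies in basement membranes (GRCm38 chromosome 10, 77052178 to 77166548), was at 20.8 and 22.1 CPM in the control and 8.32 and 4.03 CPM in PA + PS2 (log2 fold change -1.82 ± 0.22 (SE), edgeR adjusted p = 0.0107). Col4a5, a network collagen of basement membrane, fell from 7.92 and 9.50 to 4.75 and 3.12 CPM. Col6a3 fell from 5.03 and 5.18 to 2.39 and 1.82 CPM, and Col12a1, which decorates fibrils, from 17.5 and 25.3 to 11.5 and 10.4 CPM. Col1a1 and Col1a2, chains of the main fibrillar collagen, differed between the repeats: Col1a1 was at 35.9 and 30.4 CPM in the control and 30.3 and 5.36 CPM in PA + PS2, and neither passed. Of 20 laminin and basement membrane genes, 1 fell and 17 lay below 0 (median -0.57). That gene was Lamc1, the laminin gamma 1 chain, at 55.1 and 68.4 CPM in the control and 41.9 and 39.7 CPM in PA + PS2. Lamb1, a laminin beta chain, was at 40.6 and 37.9 CPM in the control and at 45.7 and 38.9 CPM in PA + PS2, and did not pass.

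Other matrix classes gave few calls each. Matrix glycoproteins and matricellular genes had a median of -0.41, with 2 of 41 fallen, Fstl1 and Ccn1. Matrix enzymes and inhibitors had a median of -0.30, with 2 of 53 fallen. Adamts1, a protease that cuts proteoglycans, fell from 55.8 and 51.5 to 33.5 and 29.2 CPM (log2 fold change -0.77 ± 0.10 (SE), edgeR adjusted p = 0.00813), and Loxl2, which crosslinks collagen, fell from 8.10 and 8.13 to 3.47 and 1.56 CPM. Proteoglycans had a median of -0.27, with 3 of 35 fallen, Cspg4, Cd44 and Gpc4. Gpc4, a glypican on the cell surface, fell from 27.3 and 46.1 to 18.7 and 19.9 CPM. Outside the lists, Ccdc80, a secreted matrix protein, fell from 4.47 and 7.33 to 2.23 and 2.696 CPM. Cd248, a surface protein of fibroblasts and pericytes, had the lowest log2 fold change of the protein-coding genes that passed, -2.86 ± 0.45 (SE), from 2.26 and 3.40 to 0.351 and 0.422 CPM.

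Most fibroblast and mural markers lay lower, and matrix genes are made by these cells among others. Of 15 mural genes tested, 2 fell (median -1.04), Cspg4 and Mcam, an adhesion molecule of pericytes and endothelium, which fell from 7.24 and 8.16 to 3.22 and 2.86 CPM. Of 23 fibroblast and meningeal genes none passed, 18 lay below 0 and 5 above, and the median was -0.99. The 2 of smallest p moved in opposite directions. Mgp was at 0.328 and 1.40 CPM in the control and 0.0319 and 0 CPM in PA + PS2. Fbln1 lay higher within both repeats, at 8.46 and 11.1 CPM in the control and 10.4 and 18.3 CPM in PA + PS2. Acta2 was at 53.7 and 87.9 CPM in the control and 32.4 and 19.4 CPM in PA + PS2 and did not pass. The summed level of the 20 mural genes was 107 and 153 CPM in the control and 72.8 and 65.7 CPM in PA + PS2. That of the 27 fibroblast and meningeal genes was 148 and 136 CPM in the control and 123 and 66.7 CPM in PA + PS2. How far these cells enter the matrix values was not tested.

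Genes of adhesion and of the contractile cytoskeleton fell next to the matrix genes. Integrins are the receptors that bind laminin and other matrix proteins as pairs of an alpha and a beta chain. Of 19 tested, 2 fell and 0 rose, 14 lay below 0 and the median was -0.43. Itgav fell from 15.1 and 17.5 to 9.31 and 8.93 CPM, and Itgb1, the beta chain shared by laminin receptors, fell from 109 and 132 to 83.4 and 83.5 CPM. In both genes the 2 scaffold libraries were nearly equal. Itga6, an alpha chain of laminin receptors, was at 23.9 and 33.5 CPM in the control and 19.1 and 24.2 CPM in PA + PS2 and did not pass. Of 64 focal adhesion and contractile actin genes 3 fell and 52 lay below 0 (median -0.38). Tagln2, an actin-binding protein, fell from 6.05 and 10.8 to 1.88 and 2.34 CPM (log2 fold change -1.98 ± 0.24 (SE), edgeR adjusted p = 0.00813). Cdc42ep1, an effector of Cdc42, fell from 3.10 and 5.39 to 0.797 and 0.975 CPM, and Tpm4, a tropomyosin, fell from 88.2 and 86.8 to 68.7 and 54.0 CPM.

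Other genes of the membrane, actin and adhesion fell too. Msn encodes moesin, which ties the membrane to actin, and it fell from 16.3 and 28.4 to 8.10 and 7.37 CPM (log2 fold change -1.50 ± 0.19 (SE), edgeR adjusted p = 0.0107). Myo10, a motor of filopodia, fell from 12.2 and 21.2 to 7.14 and 9.06 CPM, and Dock1, an activator of Rac, fell from 4.74 and 9.65 to 2.58 and 2.18 CPM. Anxa2, a membrane-binding annexin, fell from 12.3 and 13.8 to 7.36 and 5.20 CPM, the only one to pass of 14 annexin and S100 genes (13 of them below 0, median -0.69). Arhgap31 and Syde1, which switch off small GTPases, fell by 0.99 and 1.83 on the log2 scale, and Tanc1, a scaffold protein, fell by 0.99. Jam2, a junctional adhesion molecule, fell from 17.1 and 23.3 to 10.4 and 7.34 CPM, Vcam1, an adhesion receptor induced in inflammation, from 3.40 and 6.64 to 1.59 and 1.95 CPM, and Pmp22, a membrane protein, from 4.71 and 6.91 to 1.98 and 1.88 CPM.

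YAP and TAZ enter the nucleus when cells are spread and under tension, and act there with TEAD factors. Of 38 genes of this system tested, 5 fell and 0 rose, 28 lay below 0 and the median was -0.13. Ccn1, a matricellular target, was at 22.3 and 24.7 CPM in the control and 11.3 and 9.10 CPM in PA + PS2. Tead2, one of the TEAD factors, fell from 4.56 and 8.995 to 2.04 and 2.40 CPM, and Ptpn14, a phosphatase that holds back YAP, fell from 5.90 and 7.03 to 2.30 and 2.14 CPM (edgeR adjusted p = 0.0183). So the calls hold a factor, an inhibitor and targets alike. Axl, a receptor kinase that is a known target, fell from 3.84 and 5.84 to 1.18 and 1.40 CPM, and Vgll3, a TEAD cofactor, fell from 8.67 and 10.2 to 4.43 and 3.41 CPM. Yap1 itself was at 4.83 and 7.59 CPM in the control and 4.27 and 3.25 CPM in PA + PS2 and did not pass (edgeR adjusted p = 0.275). GGAATG, the letters TEAD factors bind, stood in 4 of the 5 promoters of these fallen genes, in 17 of 70 promoters of lower genes (24.3%), in 2 of 14 of higher genes and in 12.02% of all promoters. The promoters of Ccn1 (chr3:145649936-145650235, minus strand) and Ptpn14 (chr1:189728018-189728317, plus strand), a target and an inhibitor, are shown 5′ to 3′ with CATTCC, the reverse complement of GGAATG, in capitals.
Ccn1: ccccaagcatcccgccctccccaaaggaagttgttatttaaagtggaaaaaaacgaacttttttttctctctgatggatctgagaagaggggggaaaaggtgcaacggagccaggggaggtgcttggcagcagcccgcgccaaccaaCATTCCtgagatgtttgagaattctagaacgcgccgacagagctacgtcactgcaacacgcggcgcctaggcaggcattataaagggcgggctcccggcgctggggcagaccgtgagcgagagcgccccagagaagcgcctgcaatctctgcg
Ptpn14: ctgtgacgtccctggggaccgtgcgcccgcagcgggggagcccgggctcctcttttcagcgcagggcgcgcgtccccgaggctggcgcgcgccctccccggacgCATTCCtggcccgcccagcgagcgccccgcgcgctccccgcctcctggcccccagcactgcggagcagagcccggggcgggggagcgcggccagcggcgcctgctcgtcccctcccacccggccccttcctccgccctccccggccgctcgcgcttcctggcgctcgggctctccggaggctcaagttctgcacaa
Each window holds 1 match on the strand opposite to transcription. Genes of this list that did not fall were not counted, so whether GGAATG goes with the fall was not tested.

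Genes of the insulin-like growth factor system and single genes of other systems fell. Of 24 genes of the insulin-like growth factor system tested, 3 fell and 0 rose (median -0.17). Igf1, the ligand, fell from 33.3 and 27.6 to 22.4 and 14.3 CPM, and the binding proteins Igfbp5 and Igfbp7 fell from 99.5 and 126 to 66.0 and 94.4 CPM and from 3.34 and 6.05 to 0.733 and 1.82 CPM. Dusp4, a phosphatase that ERK signalling induces and that shuts MAP kinases off, fell from 115 and 133 to 86.8 and 101 CPM. It was the only one to pass of 28 ERK feedback genes (23 below 0, median -0.39), beside 0.676% of all genes tested. Wls, which carries Wnt ligands to the surface, fell from 76.8 and 79.3 to 58.5 and 47.6 CPM, opposite to Wnt7b. Adgrg1, an adhesion receptor that binds collagen in the cortex, fell from 179.9 and 191 to 137 and 130.1 CPM, and Mfsd2a, a lipid transporter of the blood-brain barrier, fell from 11.3 and 17.0 to 7.36 and 6.27 CPM. Epas1, the hypoxia-inducible factor 2 alpha, fell from 7.12 and 8.61 to 1.69 and 1.72 CPM in nearly equal scaffold libraries (log2 fold change -2.21 ± 0.32 (SE)). It was the only one to pass of 27 genes of the hypoxia system, whose median was 0.02, beside 0.676% of all genes tested that passed. Hif1a, the other main factor of that system, was at 97.2 and 113 CPM in the control and at 110.2 and 127 CPM in PA + PS2.

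Genes that neurons switch on with activity lay lower, and 4 of them fell. Calcium entry during firing induces transcription factors such as Fos within minutes and secreted or synaptic effectors later. Scg2, a secretogranin of dense-core vesicles (GRCm38 chromosome 1, 79434669 to 79440120), was at 382 and 328 CPM in the control and 243 and 182 CPM in PA + PS2 (log2 fold change -0.75 ± 0.09 (SE), edgeR adjusted p = 0.00813). Rgs2, which damps G protein signalling, fell from 178 and 140.3 to 128 and 95.2 CPM, so 2 of 42 effectors fell and 39 lay below 0 (median -0.43). In the AP-1 family, 2 of 11 fell (median -0.47), Fosl2 from 317 and 380.5 to 236 and 265 CPM and Maff from 12.8 and 13.3 to 7.75 and 7.54 CPM. Fos was at 63.6 and 61.0 CPM in the control and 44.7 and 34.6 CPM in PA + PS2 (edgeR adjusted p = 0.0574). Npas4, a factor specific to activity, was at 65.1 and 57.8 CPM in the control and at 50.2 and 35.3 CPM in PA + PS2 (edgeR adjusted p = 0.149). Both were lower in both scaffold libraries without passing, where 17.1% of all genes tested lay lower without overlap. None of 24 Egr, Nr4a and related factors passed (median -0.22). Nr4a1 had the smallest p among them, at 68.7 and 59.4 CPM in the control and 51.8 and 39.7 CPM in PA + PS2. CREB binds the letters TGACGTCA, which stood in 4 of the 70 promoters of lower genes (5.71%) and in 3.20% of all. The AP-1 letters TGACTCA or TGAGTCA stood in 2 of the 70 (2.86%) and in 3.11% of all. The promoter of Scg2 (chr1:79439977-79440276, minus strand) is one of the 4 and is shown 5′ to 3′ with TGACGTCA in capitals.
Scg2: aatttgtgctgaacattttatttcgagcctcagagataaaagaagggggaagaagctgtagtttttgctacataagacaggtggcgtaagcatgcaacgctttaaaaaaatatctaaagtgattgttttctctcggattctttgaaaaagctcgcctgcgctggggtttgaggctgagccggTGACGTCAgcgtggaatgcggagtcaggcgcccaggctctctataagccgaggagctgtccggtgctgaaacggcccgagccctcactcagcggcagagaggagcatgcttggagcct
The letters stand once in the window.

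Other genes fell that are known from neurons or have other roles, at low and high levels. Plppr4, a lipid-binding protein of excitatory synapses, fell from 394 and 397 to 308 and 305 CPM. Peg10, an imprinted gene derived from a retrotransposon, fell from 301 and 318 to 213 and 219.8 CPM. It was the only one to pass of 37 imprinted genes, beside 0.676% of all genes tested. In both Plppr4 and Peg10 the 4 values form 2 separate tight pairs. Rasgrp1, an activator of Ras, fell from 28.1 and 18.9 to 18.6 and 8.64 CPM, and Rcan2, an inhibitor of calcineurin, from 129 and 113 to 101 and 86.9 CPM. Gda, guanine deaminase, fell within both repeats, from 149 and 106 to 118 and 71.7 CPM, but PA + PS2 1 lay above control 2. The same held for Zfp804b, at 9.71 and 3.57 CPM in the control and 3.83 and 2.08 CPM in PA + PS2. Vxn fell from 101 and 114 to 71.8 and 67.1 CPM, and Myo5b, a motor of vesicle recycling, from 40.6 and 40.0 to 29.9 and 25.05 CPM. Lars2, the mitochondrial leucyl-tRNA synthetase, fell from 178 and 164 to 120.2 and 121 CPM.

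Of the 93 lower genes, 34 belonged to no list or family. Besides those described, they were Lrrk1, a kinase that fell from 5.15 and 6.08 to 1.72 and 1.46 CPM, Akr1c14, a steroid-metabolising reductase that fell from 1.97 and 4.74 to 0.510 and 0.617 CPM, and Slfn9, which fell from 2.29 and 5.39 to 0.893 and 0.975 CPM. Fam198b and Pxdc1 fell by 1.08 and 1.63 on the log2 scale. Zfp36l1, an RNA-binding protein that the zinc finger family pattern holds, fell from 2.09 and 3.25 to 0.701 and 0.357 CPM. Only 2 called genes were not protein coding. Gm17501, a long intergenic RNA, fell from 3.66 and 2.86 to 1.24 and 0.520 CPM. The other, n-R5-8s1, is annotated as a ribosomal RNA that exists in many near-identical copies, so its counts are uncertain. It reached the filter on low counts only through the control libraries. It had 59 counts in the control libraries and 4 in PA + PS2, a ratio of 0.0731 (95% interval 0.0193 to 0.197, counting error only). No gene passed among 552 antisense genes and 1092 processed pseudogenes tested.

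Genes of excitability and synaptic transmission gave almost no calls, beside 0.676% of all genes tested that passed. At that share a list of this size holds few calls or none, so these counts do not set the lists apart. None passed of 11 voltage-gated sodium channel genes (median -0.07), 24 calcium channel genes (0.04), 76 potassium channel subunits (-0.03), 33 glutamate receptor genes (0.03), 44 presynaptic genes (-0.05) or 17 neurofilament and initial segment genes (0.08). GABA receptor and chloride transport genes had a median of -0.13, with 20 of 23 below 0 and none passed. Syt1, the calcium sensor of vesicle release, was at 777 and 754 CPM in the control and 727 and 611 CPM in PA + PS2. Kcnk9, a leak potassium channel, was at 223 and 218 CPM in the control and at 168 and 155 CPM in PA + PS2 (edgeR adjusted p = 0.0719). Gad1, the enzyme that makes GABA, was at 380.4 and 339.6 CPM in the control and at 307 and 272 CPM in PA + PS2 (edgeR adjusted p = 0.0574). All 3 genes were lower in both scaffold libraries without passing, as 17.1% of all genes tested lay lower without overlap. Of 32 inhibitory neuron genes tested 1 rose, Nos1, and 1 fell, Igf1, and the median was -0.03. Among 24 immature neuron and growth cone genes none passed, yet 21 lay above 0 (median 0.10). Neurod6, a transcription factor of young projection neurons, was at 314 and 339.9 CPM in the control and 389.7 and 408 CPM in PA + PS2 (edgeR adjusted p = 0.0830). Log2 fold changes had a median standard error of 0.62 for genes under 1 CPM, 0.32 at 1 to 5, 0.16 at 5 to 20, 0.10 at 20 to 100 and 0.07 above 100 CPM. A gene that did not pass may therefore have changed by less than this precision shows.

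Housekeeping and stress lists gave 1 call beside that of Epas1, where 0.676% of all genes tested passed. Most of their medians were near 0. The lowest was that of 7 mitochondrially encoded mRNAs, all of which lay below 0 (median -0.37, with -0.24 in repeat 1 and -0.39 in repeat 2) and none of which passed. One of them, mt-Nd1, a subunit of the first respiratory complex, was at 3344 and 2302 CPM in the control, 2097 and 2513 CPM in PA and 2616 and 1752 CPM in PA + PS2. The interferon and MHC class I list had a median of -0.30 over 19 genes, none of which passed. None passed of 82 cytosolic ribosomal protein genes (median 0.08), 85 nuclear-encoded respiratory chain genes (-0.01), 24 glycolysis genes (-0.18), 35 cholesterol synthesis genes (0.10), 31 p53 targets (0.20), 27 heat shock genes (-0.07) or 74 axon guidance genes (0.04). The endoplasmic reticulum folding list held 33 tested genes with a median of -0.11, none of which passed. Hsp90b1, a chaperone of that compartment, had the smallest p among them, at 302 and 282 CPM in the control and 248 and 201 CPM in PA + PS2 (edgeR adjusted p = 0.0510). The Nrf2 and metallothionein list gave 1 fall, Mt3, among 30 tested genes. Both scaffold libraries were below both controls for Hsp90b1 and for Mt3, as in 17.1% of all genes tested.

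**Figure D3:**
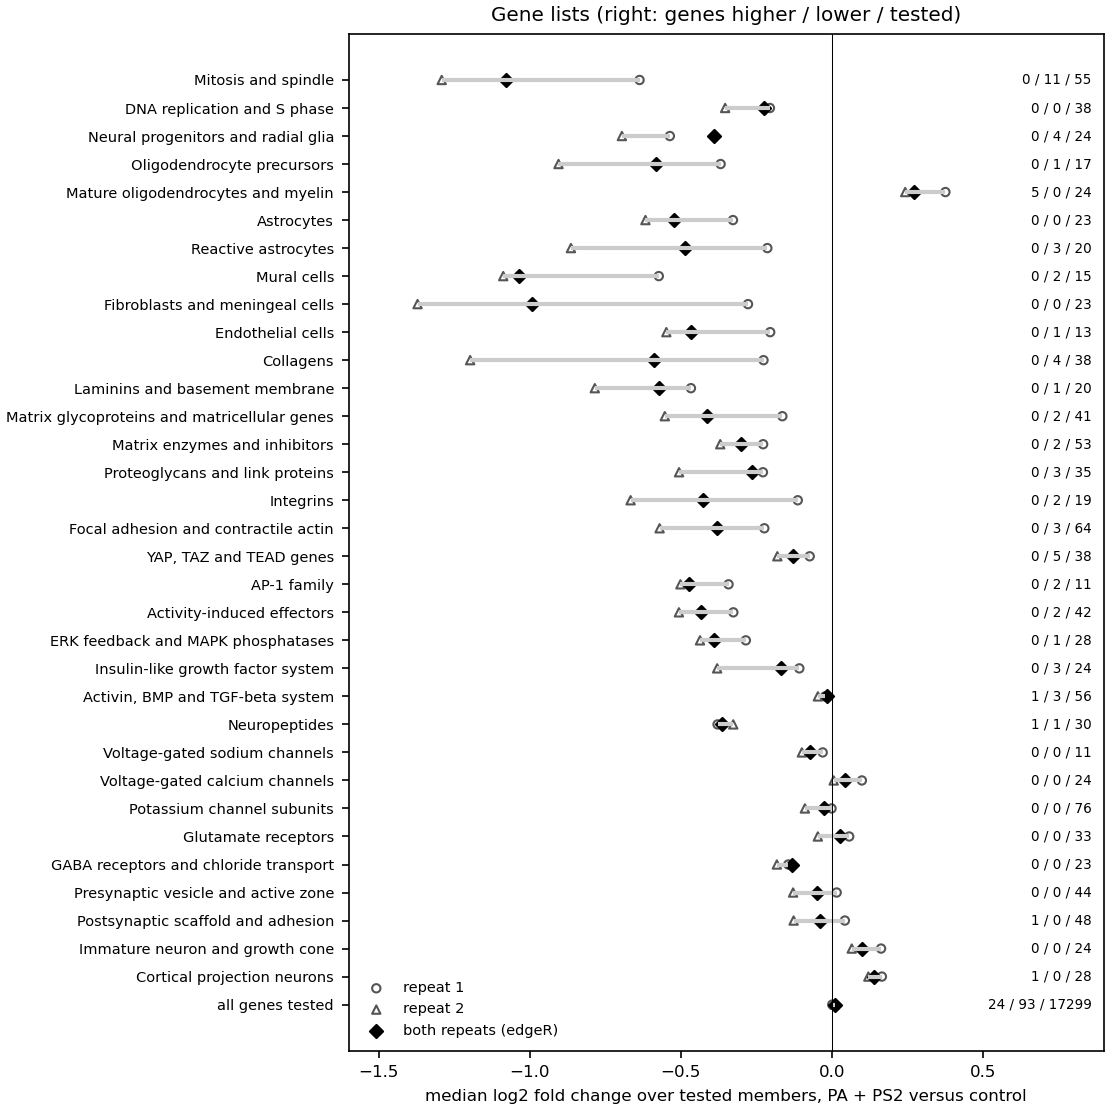
Median log2 fold change of PA + PS2 against control over the tested members of 33 gene lists and over all genes tested; circles are repeat 1, triangles repeat 2 and diamonds the fit over both repeats. Numbers at the right are genes higher, lower and tested. Mitosis, mural and fibroblast lists lie furthest below 0, and the channel and synapse lists lie near 0.

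The falls were larger within repeat 2 than within repeat 1 for most genes. Within repeat 1 the median difference over the 93 lower genes was -0.96 (log2 CPM, prior count 2), and within repeat 2 it was -1.49, with 83 of the 93 larger in repeat 2. The 24 higher genes had medians of 0.54 and 0.54, with 14 larger in repeat 2. Control 2 lay above control 1 for 80 of the 93 lower genes, and by at least 1.5 times for 39 of them, beside 9.98% of all genes tested. In repeat 1 and repeat 2 respectively, the medians of the mitosis list were -0.64 and -1.29, collagens -0.23 and -1.20, and fibroblast genes -0.28 and -1.37. Activity effectors were closer, at -0.33 and -0.51. Adamts1, Fstl1, Peg10 and Plppr4 are examples with near-equal controls, whereas in Nes and Notch1 control 2 was far above control 1. What sets the 2 repeats apart was not tested.

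**Figure D4:**
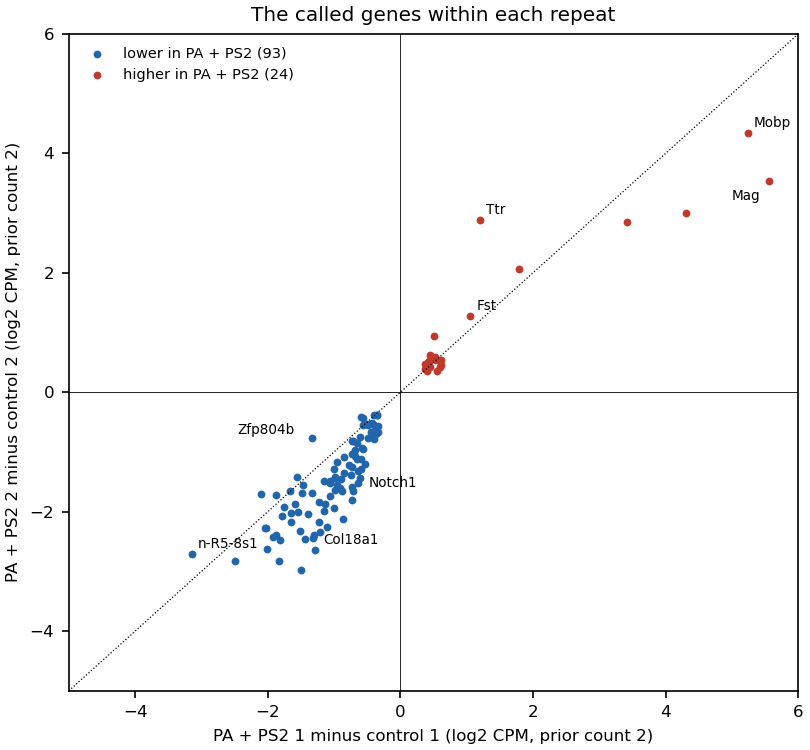
Difference of PA + PS2 from control in log2 CPM (prior count 2) within repeat 1 (horizontal) and within repeat 2 (vertical) for the 117 genes that passed; the dotted line marks equal differences. All points lie in the quadrants of equal sign, and 83 of the 93 lower genes lie below the line.

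The PA libraries share the model and the control with this comparison, so their values are set side by side and nothing is drawn from a likeness. PA + PS2 against PA also reuses the PA + PS2 libraries by which the 117 genes were chosen. Large differences and small p-values there follow in part from that choice and give no further support. Over the 24 higher genes the median log2 fold change of PA against control was 0.04, and over the 93 lower genes it was 0.04, while PA + PS2 against PA gave 0.53 and -1.35. In edgeR with the block, PA against control called 0 of 17299 genes (323 at unadjusted p under 0.05, smallest adjusted p = 0.790), and PA + PS2 against PA called 280 (1.62%). Fst was at 26.8 and 17.8 CPM in PA repeats 1 and 2 (PA + PS2 against PA, edgeR adjusted p = 0.00156). Ccnd2 was at 80.0 and 144 CPM (edgeR adjusted p = 0.00142) and Tagln2 at 6.59 and 8.33 CPM (edgeR adjusted p = 0.00539). For these 3 genes both PA + PS2 libraries lay outside the range of the PA libraries as well. Mag was at 0.646 and 0.126 CPM (edgeR adjusted p = 0.0164). Of the 117 genes, 13 did not pass between PA + PS2 and PA. In 3 of these 13, Lars2, Zfp804b and n-R5-8s1, PA against control held at least 50% of the log2 fold change. Lars2 was at 105 and 132 CPM in PA, Zfp804b at 4.88 and 2.46 CPM and n-R5-8s1 at 0.0646 and 0.316 CPM (PA + PS2 against PA, edgeR adjusted p = 0.949, 0.715 and 0.667). Akr1c14 was at 1.78 and 1.86 CPM in PA, between both groups (edgeR adjusted p = 0.133).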

How the data were processed

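Each deposited file holds the raw counts of 1 library by Ensembl gene, per the file headers. An RNeasy micro kit gave the RNA, and the labels' protocols name TruSeq Total RNA for the libraries, while the molecule label reads polyA RNA. Tools in the submitters' processing notes are HTSeq 2.0.2, STAR 2.7.5, DESeq2 1.14.1 and cutadapt 4.2, with the build mm10 and no roles; no source used here gives the settings, strand or annotation release, and genes with an antisense partner are therefore uncertain. Each file lists 54232 genes, of which 54079 had a symbol and 54165 coordinates in GENCODE M21 (GRCm38).

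The test was edgeR 4.0.16 (R 4.3.3), a robust quasi-likelihood F test without the legacy setting, after TMM and filterByExpr by group. Group and repeat number were terms over all 6 libraries (2 residual degrees of freedom), with Benjamini-Hochberg adjustment over 17299 genes and a threshold of 0.05. Standard errors come from the log2 fold change and F. The script was tested on simulated data. The labels give no shared batch for a repeat number. Repeat differences correlated at 0.35 (control and PA), 0.36 (control and PA + PS2) and 0.21 (PA and PA + PS2) across 17299 genes, which are not independent replicates, and the comparison is defined by pairs, so the numbers were taken as pairs. The biological coefficient of variation was 9.57% with the block and 16.7% without. Replicates differed beyond counting noise (chi-square per degree of freedom 18.4 in the control and 21.1 in PA + PS2).

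Named genes were the 15 highest and 15 lowest fold changes that passed, the 10 with the highest CPM, up to 6 per list (where none passed, up to 2 of smallest p), all non-coding calls and all calls in no list. Some genes that passed are counted but not reported here by name. A few further genes that did not pass, such as Top2a, Mki67, Fos, Npas4, Olig1, Itga6 and mt-Nd1, were added after their values were seen. The 60 lists and 20 families, like the comparison itself, were chosen with earlier results of these data known. Alternatives were RLE or library totals, no filter, a filter of 50 counts in 2 libraries, DESeq2 1.42.0 with and without the block, limma 3.58.1 (voom), the legacy setting, no block, 4 libraries alone, each repeat alone, and each library left out.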

Additional observations from a re-analysis of the deposited data

How the results depend on the processing

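The 117 calls depended on the model more than on the scaling. Without the replicate block 0 genes passed in edgeR, where all 117 kept their sign. With the block, no filter gave 59, a filter of 50 counts in 2 libraries 42, DESeq2 279 (3 of the 117 did not pass and 3 had no adjusted p), and the 4 libraries alone 849, which held all 117. Leaving out 1 library gave 0 to 560 genes: 0 without control 2 or PA + PS2 2, 61 without control 1 (31 of the 117), 522 without PA + PS2 1 (105 of the 117), 503 without PA 1 and 560 without PA 2. A fit that leaves out a control or PA + PS2 library assumes that the lone library varies like the other groups. RLE size factors (105), library totals (163), limma-voom (121), the legacy setting (121) and DESeq2 without the block (130) stayed within 1.5 times of 117. No called gene that was tested changed sign under any of these 16 settings. List medians changed sign for 0 of 79 lists without the block, 1 with RLE or library totals, and 11 in repeat 1 alone and 15 in repeat 2 alone. The cause of these differences between settings was not tested.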

Other observations

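The median length of the genes that passed was above that of all genes tested. The 93 lower genes spanned a median of 39467 bases, and the 24 higher genes 23854.5 bases, beside 19227 bases over all genes tested; exonic lengths were 5421, 5665 and 3929 bases. Chromosome 3 held 3 higher and 11 lower genes among 903 tested (1.55%, beside 0.676% over all chromosomes), and chromosome 17 held 2 lower genes among 791 (0.253%). GGGCGG, the letters Sp1 binds, stood in 50 of 70 promoters of lower genes (71.4%), in 5 of 14 of higher genes (35.7%) and in 63.3% of all promoters searched. ACGTG, the core that hypoxia-inducible factors bind, stood in 13 of the 70 (18.6%) and in 25.1% of all; it is part of the E-box letters CACGTG, found in 3 of the 70 (4.29%) and in 9.82% of all. These are descriptions with no test.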
